A study of Mus musculus with 4 samples.

Results

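Lipid-associated macrophages are recruited macrophages of fatty liver, adipose tissue and atherosclerotic plaque that share a gene programme of lipid handling, and the genes examined here are 10 of its usual markers: Trem2, Spp1, Gpnmb, Cd9, Cd63, Fabp5, Lpl, Lgals3, Apoe and Ctsb. They were chosen by symbol, and all 10 were found among the 32285 gene rows of the count matrices. Droplet-based single-cell RNA-seq had been made of livers from male mice of the Cyr61fl/fl strain, 24 weeks old, after 12 weeks on a NASH diet, which is a diet that produces fatty, inflamed and scarred livers. The groups were 2 libraries whose genotype is given as a Cyr61 knockout (KO) and 2 libraries with the genotype Control. Both groups carry the floxed Cyr61 alleles and received the same diet. The labels used here name neither the Cre driver nor the cell type of the deletion, and they do not say whether the libraries of a group came from separate animals, so a p-value here reflects spread among the 4 libraries, which may be technical.

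In this programme TREM2, a surface receptor for lipids and lipoproteins, signals through its adaptor TYROBP (DAP12) and the kinase SYK, and macrophages lacking it take up the programme poorly. The cells take up and break down lipid through lipoprotein lipase (Lpl), the fatty acid carrier Fabp5 and apolipoprotein E (Apoe), and carry lysosomal and endosomal proteins such as Cd63, Gpnmb and the protease cathepsin B (Ctsb). Osteopontin (Spp1) and galectin-3 (Lgals3) are secreted proteins linked to liver scarring, and Cd9 is a tetraspanin of the cell surface. Resident Kupffer cells and the macrophages recruited to fatty liver both make the C1q chains of complement, which freshly arrived monocytes express weakly.

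Because these genes are read here as a programme of one cell type, their promoters were examined for shared letters. Promoters of 7 members, 10 sequences in all, were present in the RefSeq table for build GRCm38.p6, each with 250 bases before and 50 after the start site. Fabp5, Lpl and Ctsb had no entry. The promoters given are those of the receptor Trem2, of Gpnmb and Spp1, the members with the highest fold changes between the barcode sets compared here, and of Lgals3, the member whose level ran against the others. Capitals mark matches, on either strand, to TGANTCA, the letters of an AP-1 site, or to GAGGAA, the core letters bound by PU.1, which read TTCCTC when the match is on the opposite strand. All 4 genes lie on the plus strand.
Trem2, chr17:48346151-48346450: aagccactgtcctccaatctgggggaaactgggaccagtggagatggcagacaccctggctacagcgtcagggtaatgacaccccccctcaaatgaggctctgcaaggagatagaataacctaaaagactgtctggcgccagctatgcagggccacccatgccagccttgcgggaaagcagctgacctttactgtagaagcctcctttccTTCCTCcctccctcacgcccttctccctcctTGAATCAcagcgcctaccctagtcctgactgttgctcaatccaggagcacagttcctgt
Gpnmb, chr6:49036268-49036567: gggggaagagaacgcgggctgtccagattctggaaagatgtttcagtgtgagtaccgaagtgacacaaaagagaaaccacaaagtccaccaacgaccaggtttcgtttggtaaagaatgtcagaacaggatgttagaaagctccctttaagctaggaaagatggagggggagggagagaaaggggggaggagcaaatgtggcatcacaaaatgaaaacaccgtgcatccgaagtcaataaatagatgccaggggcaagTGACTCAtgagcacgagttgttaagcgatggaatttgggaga
Spp1, chr5:104434861-104435160: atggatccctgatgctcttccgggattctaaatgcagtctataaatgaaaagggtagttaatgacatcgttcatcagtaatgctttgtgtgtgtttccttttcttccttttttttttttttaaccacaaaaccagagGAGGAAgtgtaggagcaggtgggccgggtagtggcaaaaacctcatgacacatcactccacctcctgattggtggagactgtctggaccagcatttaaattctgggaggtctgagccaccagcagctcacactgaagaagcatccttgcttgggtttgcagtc
Lgals3, chr14:47373610-47373909: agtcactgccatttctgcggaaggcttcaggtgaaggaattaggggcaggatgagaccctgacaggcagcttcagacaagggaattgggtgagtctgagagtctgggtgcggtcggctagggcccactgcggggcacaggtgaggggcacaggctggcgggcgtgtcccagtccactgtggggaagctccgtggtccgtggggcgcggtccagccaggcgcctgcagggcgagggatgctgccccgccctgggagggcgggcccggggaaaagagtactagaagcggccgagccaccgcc
The Trem2 promoter held TGANTCA beginning 9 bases upstream of the start site, as TGAATCA, and GAGGAA on the minus strand at 40 bases upstream. The Gpnmb promoter held TGANTCA, as TGACTCA, beginning 8 bases downstream of the start, and the Spp1 promoter shown held GAGGAA at 113 bases upstream. No letters of the motifs searched were in the Lgals3 window. The Cd9 promoter held none either, although Cd9 was higher in C1q barcodes, nor did another promoter of Spp1 and another of Apoe. GAGGAA was also in promoters of Apoe and Cd63, and CACGTG, the E-box letters of lysosomal genes, was in 0 of the 10 sequences. Of all 32851 promoters in the table, 7.81% held TGANTCA, 28.3% held GAGGAA and 7.15% held CACGTG, so GAGGAA is a frequent word. These matches describe letters and not bound sites. The genes themselves are spread over the genome: in the GENCODE annotation of GRCm38 Trem2 is at chr17:48346401-48354147, Cd9 and Gpnmb lie on chromosome 6 and Ctsb and Lgals3 on chromosome 14, and the other 5 are each alone on a chromosome.

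The files held between 4852 and 7253 barcodes and between 8290677 and 20537236 UMIs (unique molecules counted) per library, and 22937 barcodes were kept. No more than 20 barcode sequences were shared by any pair of libraries. Cyr61, listed under its current symbol Ccn1, had 0 and 12 UMIs in the kept barcodes of KO 1 and KO 2, against 170 and 142 UMIs in Control 1 and Control 2. These counts are sums over all cell classes, whose numbers differed between the groups. The unnamed cluster 19, described below, held 1 and 2 barcodes in KO 1 and KO 2, against 313 and 65 in Control 1 and Control 2. Whether the Ccn1 difference goes beyond such differences in cell make-up was not tested. Ccn1 had 0 UMIs in both sets of barcodes defined next, in every library, so the deletion could not be checked in them.

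Barcodes were sorted by genes outside the programme. C1q barcodes had at least 5 UMIs of C1qa, C1qb and C1qc together, and numbered 5 and 4 in KO 1 and KO 2, against 86 and 48 in Control 1 and Control 2. The others, called Lyz2/Csf1r barcodes here, had at least 5 UMIs of Lyz2 (lysozyme) and Csf1r (the macrophage growth factor receptor) together with fewer than 5 C1q UMIs, and numbered 402 in the KO libraries together, 244 of them in KO 1, against 274 and 368 in Control 1 and Control 2. C1q barcodes were thus few in both KO libraries, and every KO value from them rests on 9 barcodes in all. In KO 1 another 5 C1q barcodes were among those removed for high doublet scores, a rule used because the caller marked 0.0140% of its barcodes, and with doublets kept KO 1 had 10. With a cut of 1 Lyz2 or Csf1r UMI, 29.5% of the barcodes taken in fell in T, B or NK cell-like clusters, which is why the higher cut was used.

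Clusters built without the 10 members were used to describe the barcodes. Of the 143 C1q barcodes, 140 lay in the cluster with monocyte and macrophage markers, as did 856 of the 1044 Lyz2/Csf1r barcodes. The remainder of the latter included 103 neutrophil-like and 71 conventional dendritic cell-like barcodes. The C1q chains, Lyz2 and Csf1r, which chose the barcodes, were not left out of the clustering and are among the markers naming that cluster. This overlap is therefore no independent evidence of identity. Of 7 Kupffer cell markers, 1 and 0 were detected in C1q barcodes of KO 1 and KO 2, against 5 and 6 in Control 1 and Control 2, and Timd4 was at 0 in all libraries. Clec4f, the most specific of them, had 0 UMIs in the KO C1q barcodes, against 2 and 6 UMIs in the Control ones. C1q barcodes of KO 1 and KO 2 held 16924 and 12135 UMIs of all genes, against 272296 and 217897 in Control 1 and Control 2. At that depth a count of 0 in KO does not show that a marker was absent. Kupffer markers summed to 59.1 and 0 CPM (UMIs of the genes per 1000000 UMIs of the same barcodes) in C1q barcodes of the KO libraries, against 169 and 257 CPM in Control, and to at most 7.44 CPM in Lyz2/Csf1r barcodes of any library. The label of lipid-associated macrophage therefore covers a set of C1q-bearing barcodes in which Kupffer cells were not separated from recruited macrophages.

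The 10 genes were not one block in these livers. Set against Lyz2/Csf1r barcodes, C1q barcodes were higher in 9 of them and lower in Lgals3, the exception. Of the 9, Gpnmb entered the test only through its C1q barcodes, so its call is no separate result. The comparison used the libraries with at least 5 C1q barcodes, KO 1, Control 1 and Control 2, with the library as a block, and edgeR's quasi-likelihood test with Benjamini-Hochberg adjustment over 5233 genes. Of all those genes 5.08% were called higher in C1q barcodes and 4.41% lower, or 9.5% in either direction. The members' median log2 fold change was 2.87, against -0.07 over all genes tested. DESeq2 called 7 of the 10, without Fabp5, Ctsb and Lgals3 (adjusted p = 0.0784, 0.189 and 0.129). Of all 5233 genes it called 252. C1q barcodes of KO 2 were below the minimum, and their values are given beside the test.

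Trem2, the receptor, had 177 and 0 CPM in C1q barcodes of KO 1 and KO 2 (3 and 0 UMIs), against 382 and 491 CPM in Control 1 and Control 2 (104 and 107 UMIs). In Lyz2/Csf1r barcodes it had 45.2 and 57.8 CPM in the KO libraries and 67.0 and 66.1 CPM in the Control libraries. C1q barcodes were higher in each library except KO 2, where a count of 0 allows up to 304 CPM by the exact Poisson interval. The log2 fold change of C1q over Lyz2/Csf1r barcodes was 2.55 ± 0.34 (SE, edgeR adjusted p = 4.06e-12). B cell-like barcodes, which should lack the gene, had between 0 and 1.31 CPM of Trem2, below every Lyz2/Csf1r value.

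Spp1, the secreted phosphoprotein osteopontin, was carried by few barcodes. In C1q barcodes it had 59.1 and 0 CPM in KO 1 and KO 2 (1 and 0 UMIs), against 533 and 1189 CPM in Control 1 and Control 2. A single C1q barcode held 117 of the 259 UMIs in Control 2, and another held 53 of the 145 in Control 1. Lyz2/Csf1r barcodes had 26.7 and 5.35 CPM in KO and 14.9 and 92.8 CPM in Control, and here too single barcodes carried the high values, with 23 of 23 UMIs in 1 barcode of KO 1 and 123 of 153 in 1 barcode of Control 2. Its log2 fold change between the sets was 3.78 ± 0.38 (edgeR adjusted p = 3.34e-21).

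Gpnmb, a transmembrane glycoprotein of lysosomes, was sparse. Its C1q barcodes had 0 UMIs in both KO libraries, against 7 and 25 UMIs (25.7 and 115 CPM) in Control 1 and Control 2. Lyz2/Csf1r barcodes held between 1 and 5 UMIs in each library, the highest level being 9.30 CPM in Control 1. Both Control libraries were thus higher in C1q barcodes, while the KO counts of 0 allow up to 218 and 304 CPM. The fitted log2 fold change was 4.09 ± 0.74 (edgeR adjusted p = 1.28e-06). Lyz2/Csf1r counts of Gpnmb alone fell below the filter on low counts, so it was tested only through its C1q barcodes. Its call as higher there is therefore no separate result.

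**Figure D1:**
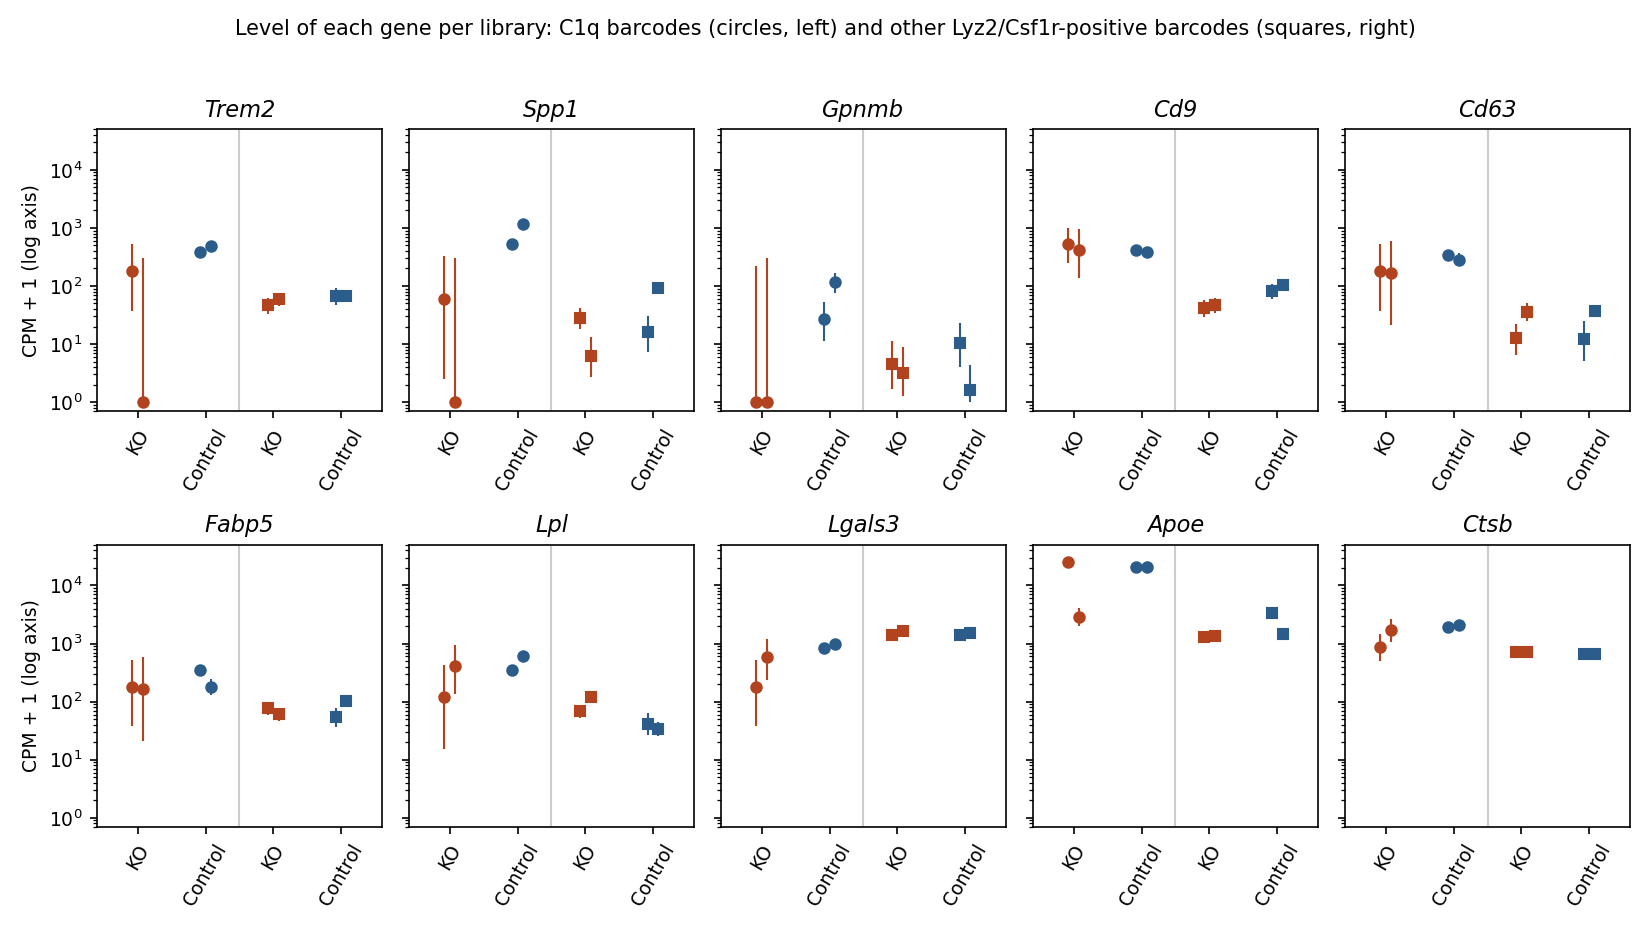
Level of each of the 10 genes in C1q barcodes (circles) and Lyz2/Csf1r barcodes (squares) of each library, as CPM + 1 on a log axis with exact 95% Poisson intervals for counting error, KO left of Control. Trem2 in Control C1q barcodes sits at 382 and 491 CPM, above the 45.2 to 67.0 CPM of Lyz2/Csf1r barcodes, while Lgals3 lies lower in C1q barcodes.

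Among the lipid handlers, Apoe, the lipoprotein ligand that macrophages secrete, had 24935 and 2884 CPM in C1q barcodes of KO 1 and KO 2, against 20511 and 20817 CPM in Control 1 and Control 2. Of the 422 UMIs in KO 1, 220 came from 1 barcode. Lyz2/Csf1r barcodes had 1305 and 1358 CPM in KO and 3290 and 1447 CPM in Control. All 4 libraries were higher in C1q barcodes, with a log2 fold change of 3.40 ± 0.30 (edgeR adjusted p = 1.30e-27), while B cell-like barcodes still had 161 to 252 CPM.

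Lpl, which splits triglycerides of lipoproteins, had 118 and 412 CPM in C1q barcodes of KO 1 and KO 2 (2 and 5 UMIs), against 349 and 606 CPM in Control 1 and Control 2. The C1q UMIs of Lpl in KO came from 1 barcode in each library. Lyz2/Csf1r barcodes had 68.4 and 120 CPM in KO livers, against 40.9 and 32.7 CPM in Control. C1q barcodes were higher in every library, by 3.19 ± 0.35 on the log2 scale (edgeR adjusted p = 2.51e-17), and Lyz2/Csf1r barcodes were higher in both KO libraries than in either Control library. Fabp5 is a cytosolic fatty acid carrier. It had 177 and 165 CPM in KO C1q barcodes (3 and 2 UMIs, the 2 from 1 barcode), against 345 and 179 CPM in Control ones. Its Lyz2/Csf1r level was 75.3 and 59.97 CPM in KO and 53.9 and 103 CPM in Control, and the difference between the sets was 1.55 ± 0.34 (edgeR adjusted p = 0.000179). That call rested on Control 1, without which Fabp5 had a log2 fold change of 0.77 (adjusted p = 0.873).

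Both tetraspanins were higher in C1q barcodes. Cd63, found on late endosomes and lysosomes, had 177 and 165 CPM in C1q barcodes of KO 1 and KO 2, against 342 and 285 CPM in Control 1 and Control 2, and its Lyz2/Csf1r levels were 11.6 and 35.3 CPM in KO and 11.2 and 36.4 CPM in Control. The KO C1q values rest on 3 and 2 UMIs of Cd63, from 1 barcode in each library. The sets did not overlap, and the log2 fold change was 3.58 ± 0.38 (edgeR adjusted p = 6.48e-19). Cd9 had 532 and 412 CPM in C1q barcodes of the KO libraries (9 and 5 UMIs), against 422 and 376 CPM in the Control libraries. KO levels of Cd9 thus lay within or above the Control range, though the 5 UMIs of KO 2 came from 1 barcode. Its Lyz2/Csf1r level was 40.6 and 46.0 CPM in KO and 80.0 and 104 CPM in Control, and the sets differed by 2.29 ± 0.33 (edgeR adjusted p = 1.77e-10).

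Ctsb and Lgals3 were the members with the smallest differences between the sets. Ctsb had 886 and 1731 CPM in C1q barcodes of KO 1 and KO 2, against 1895 and 2102 CPM in Control 1 and Control 2, and between 662 and 726 CPM in Lyz2/Csf1r barcodes of every library. Of its 21 UMIs in C1q barcodes of KO 2, 17 came from 1 barcode. The log2 fold change was 1.13 ± 0.32 (edgeR adjusted p = 0.00627), and it was 0.82 without Control 1 (adjusted p = 0.739) and 0.76 without Control 2 (adjusted p = 0.731). Lgals3 is the galectin that binds damaged lysosomes and matrix glycans. In C1q barcodes it had 177 and 577 CPM in KO 1 and KO 2 (3 and 7 UMIs, the 7 from 1 barcode). C1q barcodes of Control 1 and Control 2 had 852 and 982 CPM. Lyz2/Csf1r barcodes had 1405 and 1625 CPM in KO and 1374 and 1497 CPM in Control, higher than the C1q barcodes of every library. Its log2 fold change of -1.11 ± 0.32 passed the test (edgeR adjusted p = 0.00812), but the call was lost in 6 of 15 alternatives. It was -0.64 both without KO 1 (adjusted p = 0.0627) and with 10 or more C1q UMIs (adjusted p = 0.102), -1.56 without Control 1 (adjusted p = 0.109), -1.59 without Control 2 (adjusted p = 0.0793), -1.31 with DESeq2, and -0.06 (adjusted p = 0.968) where 1 Lyz2 or Csf1r UMI was enough to enter the comparison.

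Barcodes near the C1q cut were read in the Control libraries pooled, within the cluster with monocyte and macrophage markers. In 34 barcodes with 3 to 4 C1q UMIs, just outside, Trem2 had 138 CPM, Cd63 68.9 CPM and Apoe 11602 CPM. In 10 barcodes with 5 to 6 C1q UMIs, just inside, Trem2 had 279 CPM, Cd63 279 CPM and Apoe 10600 CPM. The cut therefore did not divide Apoe levels sharply. At the ends of the range, 722 barcodes with 0 C1q UMIs had 76.2 CPM of Trem2, 1.20 CPM of Cd63 and 2238 CPM of Apoe, against 486, 371 and 22206 CPM in 63 barcodes with 20 or more. Spp1 had 92.4 CPM at 0 C1q UMIs, 0 CPM at 5 to 6 and 1051 CPM at 20 or more.

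Co-detection was compared after each barcode with at least 1000 UMIs was thinned to 1000 UMIs, since median depth differed between sets and libraries. In C1q barcodes, 5 or more of the 10 genes were detected together in 0 of 5 and 0 of 4 barcodes of KO 1 and KO 2. In Control 1 the count was 20 of 72 (27.8%, exact binomial 95% interval 17.9 to 39.6%) and in Control 2 it was 11 of 45 (24.4%, 12.9 to 39.5%). The KO counts of 0 allow up to 52.2% and 60.2%, so these data cannot show whether the KO share differed from that of Control. Without thinning the shares were 40% and 25% in KO and 48.8% and 56.3% in Control, at median depths of 2334 and 1445.5 UMIs in KO and 2562.5 and 2988.5 UMIs in Control.

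Lyz2/Csf1r barcodes rarely carried the programme in either genotype. Detection of 5 or more members was seen in 0 of 223 and 2 of 152 barcodes of KO 1 and KO 2, against 1 of 216 and 3 of 347 of Control 1 and Control 2. The mean share was 0.658% ± 0.930 in KO and 0.664% ± 0.284 in Control (SD, n = 2 each, exact two-sided permutation p = 1, where 2 libraries a group cannot go below 0.333). In B cell-like and T cell-like barcodes the count was 0 of 5054 and 0 of 4806. The mean number of members detected per barcode was 2.4 and 2 in KO and 3.65 and 3.29 in Control C1q barcodes, and 1.77 and 1.89 in KO and 1.90 and 1.88 in Control Lyz2/Csf1r barcodes. Without thinning, 6.56% and 15.2% of Lyz2/Csf1r barcodes in KO 1 and KO 2 had 5 or more members. In Control 1 and Control 2 the unthinned shares were 2.92% and 7.61%. Median depths were 3091 and 5627 UMIs in KO and 1704 and 3559.5 UMIs in Control.

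**Figure D2:**
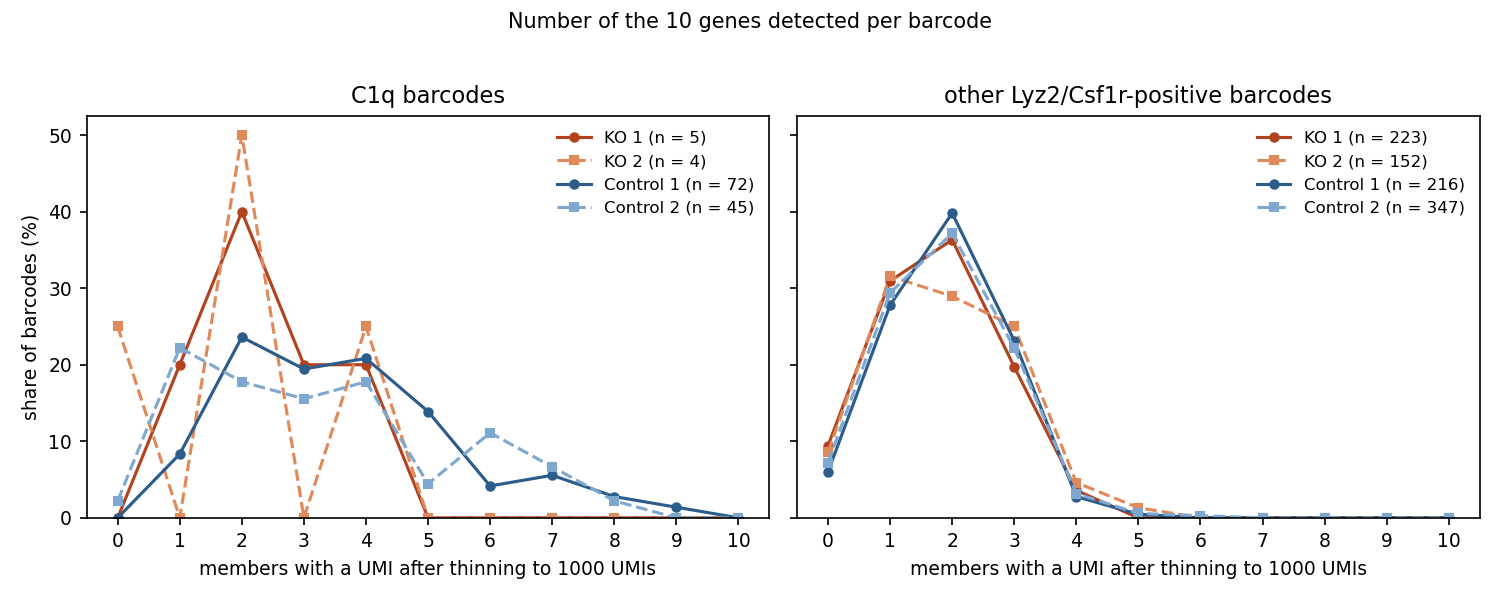
Share of barcodes, in percent, with each number of the 10 genes detected after thinning to 1000 UMIs, by library, with the number of barcodes in the legend. Control C1q barcodes reach 5 or more members in 27.8% and 24.4% of barcodes, while Lyz2/Csf1r barcodes of all 4 libraries stay at or under 1.32%.

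The genes differed in how widely each was detected at 1000 UMIs. Trem2 was found in 33.3% of C1q barcodes of both Control libraries, but in 4.93% and 4.61% of Lyz2/Csf1r barcodes of KO and 4.63% and 3.75% of those of Control, and in at most 0.292% of B cell-like barcodes. Apoe was in 94.4% and 91.1% of Control C1q barcodes and in 48.4% and 48.0% of KO and 57.4% and 51.3% of Control Lyz2/Csf1r barcodes, with a background of 12.0% to 17.8% in B cell-like barcodes. Lgals3 was in 45.8% and 33.3% of Control C1q barcodes, against 57.0% and 66.4% of KO and 63.9% and 61.4% of Control Lyz2/Csf1r barcodes, and so was more widely detected outside the C1q set. Gpnmb was seldom detected, in 2.78% and 11.1% of Control C1q barcodes.

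Pairs of members in the same C1q barcode were counted in the Control libraries. Of 45 pairs, 20 had a product of the single shares that came to at least 3 barcodes in both libraries. Apoe was in 68 of 72 and 41 of 45 barcodes of Control 1 and Control 2, so the 8 pairs with Apoe could not pass a ratio of observed to product of 1.06 and 1.10 and are left out. Of the other 12 pairs, 9 were found together more often than the product in both libraries and 0 less often in both. Their ratios ran between 0.727 and 1.91 in Control 1 (median 1.17) and between 1.21 and 2 in Control 2 (median 1.45). Trem2 and Cd9 shared 11 barcodes where the product gave 8.33 in Control 1, and 7 where it gave 4 in Control 2. Trem2 and Lpl shared 7 against 3.67, and 4 against 3. These counts are a description with no test, since barcodes of 1 library share a source.

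C1q barcodes held a large part of the members' RNA in Control livers, and most of that part was Apoe. Of all UMIs of the 10 genes, 6.61% and 0.985% lay in C1q barcodes of KO 1 and KO 2, against 42.0% and 28.0% in Control 1 and Control 2. Apoe gave 5585 of the 6986 such UMIs in Control 1 and 4536 of the 5914 in Control 2. Lpl had 48.0% and 54.8% of its UMIs there in Control 1 and Control 2, against 8.48% and 3.14% for Fabp5. C1q barcodes were 0.0742% and 0.0803% of all kept barcodes in KO, against 1.90% and 0.719% in Control. By gene, Trem2 had 6.52% and 0% of its UMIs there in KO and 40.6% and 31.8% in Control, Apoe 16.0% and 1.58% in KO and 64.1% and 50.8% in Control, and Lgals3 0.181% and 0.328% in KO and 12.8% and 5.70% in Control. In each of these the KO libraries lay below both Control libraries. With doublets kept, the KO 1 shares were 26.7% for Trem2 (20 of 75 UMIs), 32.4% for Apoe and 15.2% for all 10 genes, still below both Control libraries.

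KO was set against Control in the sum of both sets of barcodes. Spp1, Cd9, Apoe and Trem2 fell in KO, Cd63, Fabp5, Gpnmb, Ctsb and Lpl had negative log2 fold changes that did not pass, and Lgals3 did not pass either. These 4 of 10 stand beside 0.506% of 7114 genes called lower and 0.0562% called higher (0.562% in either direction), and the members' median log2 fold change was -1.68, against -0.0050 over all genes tested. C1q barcodes were 5 of 249 and 4 of 162 barcodes of the sum in KO 1 and KO 2, and 86 of 360 and 48 of 416 in Control 1 and Control 2, so in this sum fewer C1q barcodes and less RNA of a gene per barcode cannot be told apart.

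Spp1 had 27.3 and 5.29 CPM in the summed barcodes of KO 1 and KO 2, against 189 and 221 CPM in Control 1 and Control 2, a log2 fold change of -3.79 ± 0.41 (SE, edgeR adjusted p = 0.00439). Cd9 had 50.02 and 50.7 CPM in KO livers, against 195 and 135 CPM in Control (-1.81 ± 0.24, edgeR adjusted p = 0.0134). Apoe had 1760 and 1377 CPM in KO livers, against 9079 and 3707 CPM in Control (-2.15 ± 0.35, edgeR adjusted p = 0.0235). Trem2 had 47.7 and 57.1 CPM in KO livers, against 173 and 116 CPM in Control (-1.55 ± 0.25, edgeR adjusted p = 0.0235). For all 4 genes both KO libraries lay below both Control libraries. With 2 libraries a group such an order, wherever it is given here, carries little weight. The share of all genes tested that had it was not counted. The Apoe call was lost with DESeq2 (adjusted p = 0.127), and both the Apoe and Trem2 calls were lost when barcodes were kept only up to 10% mitochondrial UMIs (adjusted p = 0.0944 and 0.0879).

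Cd63 had 14.8 and 37.0 CPM in KO livers, against 122 and 65.3 CPM in Control (-1.91 ± 0.40, edgeR adjusted p = 0.0842), and the groups did not overlap. It passed in each of the fits without 1 library, where its log2 fold change ran between -2.70 and -1.43. Gpnmb had 3.41 and 2.11 CPM in KO livers, against 14.8 and 13.9 CPM in Control (-2.45 ± 0.56, adjusted p = 0.113 by edgeR). Fabp5 had 77.3 and 61.3 CPM in KO livers, against 152 and 112 CPM in Control (-1.03 ± 0.24, adjusted p = 0.113 by edgeR). Neither group pair overlapped, while those of Lpl and Lgals3 did: Lpl had 69.4 and 124 CPM in KO livers, against 144 and 99.6 CPM in Control, and Lgals3 had 1381 and 1611 CPM in KO livers, against 1199 and 1437 CPM in Control. Ctsb had 729 and 738 CPM in KO and 1078 and 830 CPM in Control (-0.50 ± 0.20, edgeR adjusted p = 0.428).

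With the C1q barcodes left out, 0 of the 9 members tested passed in Lyz2/Csf1r barcodes, where 0.157% of 7024 genes were called by edgeR's quasi-likelihood test (0.0569% higher and 0.0997% lower in KO). DESeq2 also called 0 of them, and 4 members, Cd9, Lpl, Spp1 and Apoe, had an unadjusted p below 0.05, as did 8.56% of all genes tested. Gpnmb was below the filter on low counts. The members' median log2 fold change was -0.44, against -0.0028 over all genes tested. Within monocyte or macrophage-like clusters, where 1.06% of all genes were called, these 4 members passed of 8 tested, while Trem2 had -0.73 (edgeR adjusted p = 0.196). In classical monocyte-led barcodes, a set chosen after seeing the data in which 1.78% of all genes were called, 4 of 7 passed: Spp1, Lpl, Apoe and Trem2.

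The KO effect in C1q barcodes alone was fitted only in an analysis added after seeing the data, which dropped the minimum of 5 barcodes and so took in the 4 barcodes of KO 2. Of 9 members tested 0 passed, as did 0% of all 1567 genes, with 3 members (Spp1, Lgals3 and Trem2) and 7.59% of all genes at an unadjusted p below 0.05, and DESeq2 called 0 members. Spp1 had -4.78 ± 0.99 (edgeR adjusted p = 0.182), Trem2 had -2.26 ± 0.78 and Lgals3 had -1.57 ± 0.53 (edgeR adjusted p = 0.547 for both), and Cd9 had 0.076 ± 0.45 (edgeR adjusted p = 0.995). The difference between the KO effects in C1q and in Lyz2/Csf1r barcodes passed for 1 of 10 members, Lpl, at -3.05 ± 0.67 (edgeR adjusted p = 0.0109), where 0% of 5582 genes were called higher and 0.107% lower (0.107% in either direction). The median difference over all genes was -0.88, so values are to be read relative to it, and the Lpl call was lost with DESeq2 (adjusted p = 0.999), with RLE size factors (adjusted p = 0.0752), with doublets kept (adjusted p = 0.0987) and without KO 2, Control 1 or Control 2 (adjusted p = 0.129, 0.723 and 1).

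Among the members in Lyz2/Csf1r barcodes, Cd9 had a log2 fold change of -1.25 ± 0.25 (edgeR adjusted p = 0.0586), from the per-library values of 40.6 and 46.0 CPM in KO and 80.0 and 104 CPM in Control given above. Neutrophil-like barcodes are rich in Cd9, and 9 neutrophil markers summed to 24313 and 20313 CPM in Lyz2/Csf1r barcodes of KO 1 and KO 2, against 18783 and 54373 CPM in Control 1 and Control 2. Within monocyte or macrophage-like clusters alone the Cd9 difference was larger, -2.17 (edgeR adjusted p = 0.00222). It also passed without Control 1 (-1.38, edgeR adjusted p = 5.87e-05), and did not without Control 2 (-1.03, edgeR adjusted p = 0.0940).

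Lpl was the member with a positive difference, 1.28 ± 0.29 on the log2 scale (edgeR adjusted p = 0.1004). Both KO libraries lay above both Control libraries, and the difference passed within monocyte or macrophage-like clusters (1.18, edgeR adjusted p = 0.0260), without Control 1 (1.40, edgeR adjusted p = 0.000285) and without KO 1 (1.59, edgeR adjusted p = 0.000692). For Spp1, -2.11 ± 0.59 (edgeR adjusted p = 0.238) depended on Control 2, whose value came mostly from 1 barcode, and without that library the difference was -0.06 (edgeR adjusted p = 0.991), while within monocyte or macrophage-like clusters it was -2.63 (edgeR adjusted p = 0.00895). Apoe, at -0.96 ± 0.29 (edgeR adjusted p = 0.284), depended on Control 1, without which it was -0.24 (edgeR adjusted p = 0.897), while without Control 2 it was -1.46 (edgeR adjusted p = 1.92e-06) and within monocyte or macrophage-like clusters -1.08 (edgeR adjusted p = 0.00488).

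The remaining members had differences within their error or small in size. Trem2 stood at -0.49 ± 0.25 (edgeR adjusted p = 0.610), Fabp5 at -0.44 ± 0.28 (edgeR adjusted p = 0.723) and Cd63 at -0.35 ± 0.47 (edgeR adjusted p = 0.9003). Lgals3 and Ctsb were near zero, at -0.06 ± 0.20 and -0.0018 ± 0.20 (edgeR adjusted p = 0.965 and 0.999). For Trem2 both KO libraries were still below both Control libraries, and its difference passed in classical monocyte-led barcodes alone (-0.89, edgeR adjusted p = 0.0330).

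**Figure D3:**
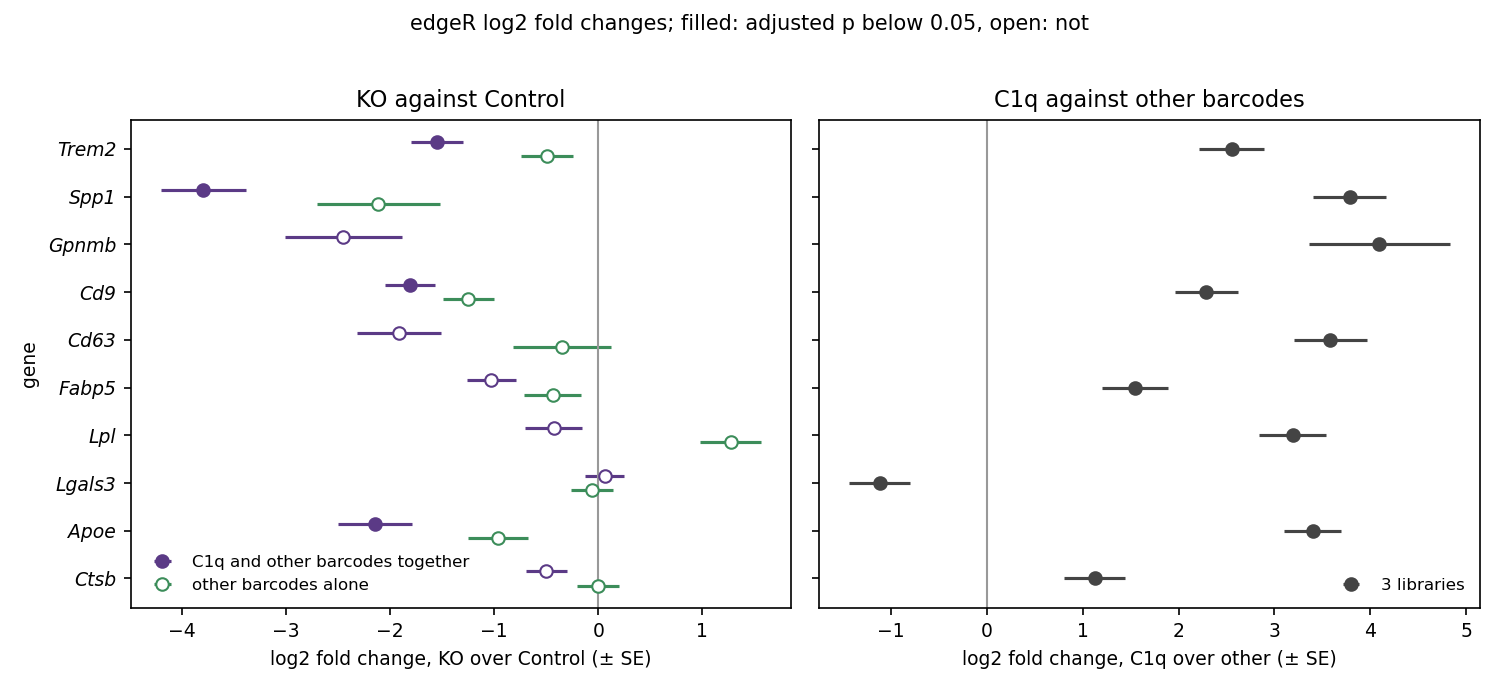
Log2 fold changes of the 10 genes with SE, where filled points passed edgeR's adjusted p of 0.05. The left panel gives KO over Control in the sum of both sets of barcodes (purple), where Spp1, Cd9, Apoe and Trem2 passed, and in Lyz2/Csf1r barcodes alone (green, named other), where 0 of 9 passed, and the right panel gives C1q over Lyz2/Csf1r barcodes, where 9 were higher and Lgals3 lower. Gpnmb entered the test of the right panel only through its C1q barcodes.

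Other genes of the pathway were read from 6 lists by role, with the members left out. Between the sets, edgeR called 25 of their 78 tested genes in either direction and DESeq2 called 15. Of all 5233 genes tested, edgeR called 5.08% higher in C1q barcodes and 4.41% lower, and DESeq2 called 252 in either direction. Between C1q and Lyz2/Csf1r barcodes, 2 of 11 tested genes of TREM2 signalling were higher and 0 lower. These were Ms4a7, a membrane protein of the MS4A family (3.57 ± 0.38, edgeR adjusted p = 1.40e-18), and Adam10, a sheddase that cleaves TREM2 (1.31 ± 0.35, edgeR adjusted p = 0.00328). The adaptor Tyrobp had 2423 and 3214 CPM in C1q barcodes of KO 1 and KO 2 and 2248 and 2061 CPM in those of Control, against 3083 to 3597 CPM in Lyz2/Csf1r barcodes, and did not pass (-0.75 ± 0.29, edgeR adjusted p = 0.0888). The receptor was thus higher in C1q barcodes while its adaptor was present in both sets. The median of the list was -0.16.

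Lysosomal genes were higher for 5 of 19 tested and lower for 0, with a list median of 0.50. Ctsd, the protease cathepsin D, had 709 and 330 CPM in C1q barcodes of KO 1 and KO 2 and 1851 and 1349 CPM in those of Control 1 and Control 2, against 166 to 253 CPM in Lyz2/Csf1r barcodes (2.51 ± 0.33, edgeR adjusted p = 4.36e-12). The lysosomal exonuclease Pld3 (3.19) and the protease Ctsl (1.17) were higher too. In lipid uptake and efflux, 4 of 14 were higher and 0 lower, with a median of 0.84: the transfer protein Pltp (3.21), the scavenger receptors Cd36 (3.31) and Msr1 (1.86), and the cholesterol exporter Abca1 (2.86). Cd36 had 59.1 and 0 CPM in C1q barcodes of KO (1 and 0 UMIs), against 176 and 206.5 CPM in those of Control.

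Of 9 transcription factors tested, 3 were higher and 0 lower, with a median of 0.85. Nr1h3, the oxysterol receptor LXR alpha, had 0 and 412 CPM in KO C1q barcodes (0 and 5 UMIs) and 55.1 and 73.4 CPM in Control ones, against 8.57 to 14.9 CPM in Lyz2/Csf1r barcodes (2.18 ± 0.57, edgeR adjusted p = 0.00239). Bhlhe41 had 9 and 10 UMIs in the Control C1q barcodes against 1 UMI in all Lyz2/Csf1r barcodes. It was thus tested only through its C1q barcodes, and its difference is no separate result. Secreted and matrix-modifying products had 6 of 12 higher and 2 lower, with a median of 1.73. Igf1, a growth factor, had 38 and 33 UMIs in Control C1q barcodes, against 5 and 1 in Control Lyz2/Csf1r barcodes, and the matrix metalloelastase Mmp12 had 8 and 79, against 3 and 2. Timp2, an inhibitor of matrix metalloproteinases, was higher by 2.90, while Mmp9, a gelatinase of neutrophils among other cells, was lower (-3.94 ± 0.61, edgeR adjusted p = 5.92e-09), with 4 and 0 UMIs in Control C1q barcodes and 35 and 334 in Control Lyz2/Csf1r barcodes. The Lyz2/Csf1r set included 103 neutrophil-like barcodes, and their part in the Mmp9 difference was not tested.

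Among other genes of lipid-associated and damage-associated macrophages, 3 of 13 were higher and 0 lower, with a median of 0.46. The apoptotic cell receptor Axl (2.73), the integrin chain Itgax (2.61) and the chemokine Ccl4 (1.14) passed, and Cd300lf, an inhibitory lipid receptor, did not (-1.39 ± 0.50, edgeR adjusted p = 0.0509). Of the Kupffer cell markers, 3 had enough counts to test, and edgeR called 3 higher and DESeq2 1. These markers passed the filter on low counts only through the C1q barcodes, so their higher level there is no separate result. Cd5l, a secreted scavenger receptor, had 18 and 17 UMIs in Control C1q barcodes against 1 and 2 in Control Lyz2/Csf1r barcodes, and Vsig4, a complement receptor, and Folr2, a folate receptor, had 8 and 18 UMIs and 16 and 10 UMIs in Control C1q barcodes, against 0 in Lyz2/Csf1r barcodes of every library. The part of Kupffer cells in the levels of the 10 genes was not tested. The C1q chains chose the barcodes, so their difference is no result.

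In the KO comparison of the summed barcodes these lists gave few calls. Mmp12, with 0 UMIs in both KO libraries, was called lower in KO among 11 secreted products tested. It entered that test only through the Control libraries, so its call is no separate result. The C1q chains took part in choosing these barcodes, so their difference is again no result. The other 5 role lists had 0 calls by edgeR, with 21 of 67 tested genes at an unadjusted p below 0.05, against 10.1% of all genes tested. DESeq2 called 3 of the 67, and 35 of all 7114 genes. Abca1 (-2.31 ± 0.44, edgeR adjusted p = 0.050005), Ms4a7 (-3.04 ± 0.61, edgeR adjusted p = 0.0648) and Cd36 (-2.43 ± 0.48, edgeR adjusted p = 0.0645) lay just outside the threshold. Plcg2, a phospholipase downstream of SYK, had 0.46 ± 0.22 (edgeR adjusted p = 0.510). In Lyz2/Csf1r barcodes alone all 6 role lists had 0 calls by either tool, with 12 of 75 tested genes at an unadjusted p below 0.05, against 8.56% of all genes tested, the smallest of them Cd300lf (-0.91 ± 0.27, edgeR adjusted p = 0.284) and Apoc2, an activator of lipoprotein lipase (-0.80 ± 0.24, edgeR adjusted p = 0.284).

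Across the cell classes of the liver, each of the 10 genes had its own distribution, given as the range of library levels. Trem2 was highest in monocyte or macrophage-like barcodes (47.0 to 170 CPM) and in an unnamed cluster, number 19, whose leading genes included Dcn, Sparc and Col3a1 (73.2 and 111 CPM in the Control libraries), and these ranges overlapped. Lpl was likewise highest in monocyte or macrophage-like barcodes (72.7 to 149 CPM), overlapping a small unnamed cluster, number 20 (68.5 and 90.5 CPM), and Lgals3 was highest there (1104 to 1733 CPM), above conventional dendritic cell-like (545 to 825 CPM) and neutrophil-like barcodes (347 to 532 CPM) with no overlap between neighbours. Apoe was highest in monocyte or macrophage-like barcodes too (1672 to 8922 CPM).

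Other members peaked elsewhere. Cd9 was highest in neutrophil-like barcodes (482 to 864 CPM), then in cluster 19 (344 and 390 CPM) and in natural killer or innate lymphoid-like barcodes (148 to 242 CPM), again with no overlap between neighbours. Cd63 was highest in cluster 19 (487 and 604 CPM), above neutrophil-like barcodes (138 to 229 CPM). Fabp5 was highest in cluster 19 as well (463 and 681 CPM), and Spp1 had 73.9 and 327 CPM there, overlapping the 2.55 to 293 CPM of monocyte or macrophage-like barcodes. Ctsb was highest in plasmacytoid dendritic cell-like barcodes (1329 to 1662 CPM), above monocyte or macrophage-like ones (782 to 1125 CPM). Gpnmb was low in every class, with 1.28 to 18.4 CPM in monocyte or macrophage-like barcodes and 17.1 and 54.3 CPM in the small cluster 20.

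**Figure D4:**
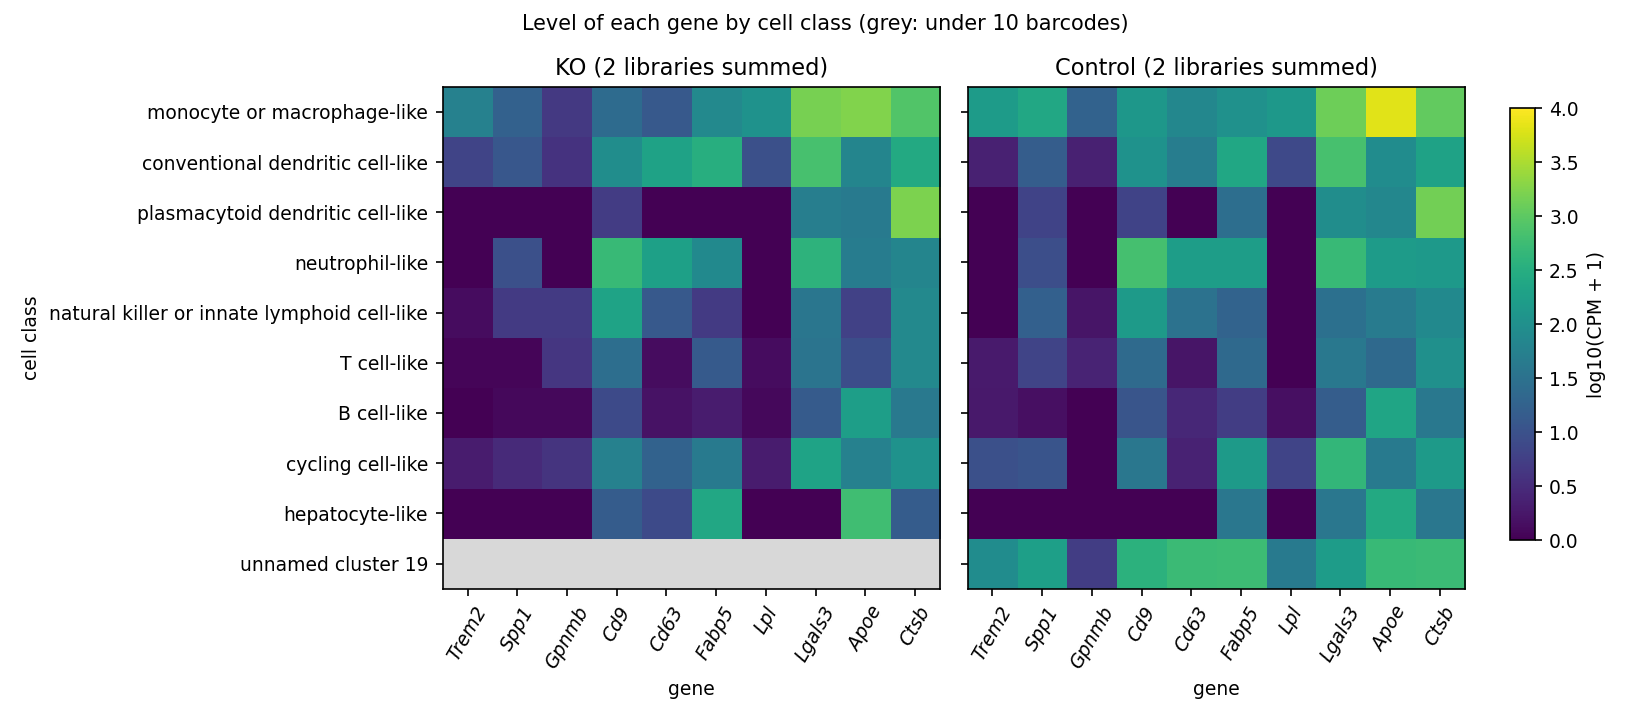
Level of each of the 10 genes in the named cell classes and cluster 19, as log10 of CPM + 1, with the 2 KO libraries summed in the left panel, the 2 Control libraries summed in the right one, and grey where a group had under 10 barcodes of a class. Trem2 and Lpl are highest in monocyte or macrophage-like barcodes, while Cd9 is highest in neutrophil-like barcodes, where single libraries had 482 to 864 CPM.

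Cluster 19 held 1 and 2 barcodes in KO 1 and KO 2, against 313 and 65 in Control 1 and Control 2, and it carried 76.3% of the Control UMIs of Cd63, 54.8% of Fabp5, 39.2% of Cd9, 38.1% of Spp1 and 34.9% of Trem2. The share of its barcodes with 5 or more members depended on depth. In Control 1 and Control 2 it was 5 of 236 and 0 of 60 barcodes after thinning to 1000 UMIs, 9.03% and 25% at 2000 UMIs, and 27.5% and 76.9% without thinning. In KO livers, monocyte or macrophage-like barcodes held 94% of Trem2 and 92.9% of Lpl UMIs, natural killer or innate lymphoid-like barcodes held 43.0% of Cd9, and B cell-like barcodes held 32.6% of Apoe, at the low level per barcode given above.

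The genes whose profile over cell classes was most like the mean profile of the members were Lrp1, a receptor for apolipoprotein E (r = 0.906), Anxa3 (0.847), Ifitm2 (0.846), Tnfsf13 (0.843) and Cd14, a lipopolysaccharide co-receptor (0.839). The measure was Pearson's r of log2(CPM + 1) over 54 sums of a library and a class, in 16 classes, and these sums share libraries and depth. Among the members, Trem2 and Lpl were most alike (0.826), then Cd9 and Cd63 (0.788), and Gpnmb and Fabp5 least (-0.05).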

How the data were processed

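Matrices deposited by the authors gave the UMI count of each gene in each barcode, not normalized, for 2 KO and 2 Control libraries, made with Cell Ranger 3.1.0 on mm10 per the submitters' processing notes. Per the labels' protocols, livers were stored in serum with 10% DMSO, thawed, digested and freed of dead cells on a column. Barcodes with at least 500 UMIs, 250 genes and at most 25% mitochondrial UMIs were kept (lowest depth deposited, 500 UMIs). Doublets were called in KO 2 (84), and in KO 1, Control 1 and Control 2, where the caller marked almost none, the highest scores were removed (415, 183 and 411). Clusters were made with scanpy 1.11.5 (2000 variable genes, 30 components, 15 neighbours, Leiden resolution 1) without the 10 members, and named from marker lists. Counts were summed per library and barcode set and tested with edgeR 4.0.16 (TMM, filterByExpr, quasi-likelihood test, Benjamini-Hochberg adjusted p below 0.05) in R 4.3.3, where SE is the size of the log2 fold change over the root of F. A set with under 5 barcodes in a library was not fitted, except in fits added after seeing the data. DESeq2 1.42.0 and other cuts, filters and left-out libraries were alternatives. The fits were tested on simulated data. Poisson and binomial 95% intervals (scipy 1.17.1) cover counting error only. No library pair agreed within sampling noise.

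All 10 members were named in each comparison, as were up to 4 genes per other list, those with the smallest p, and the 5 genes most like the members' mean profile. Some genes that this rule names are not reported here, though the list counts include them. Members and lists were chosen with earlier results of these data known. Same-numbered KO and Control libraries did not deviate together, so the numbers were not taken as pairs. Coordinates are those of GENCODE M21.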

Additional observations from a re-analysis of the deposited data

Results flagged for a closer look

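Lpl, which splits the triglycerides of lipoproteins, is listed because its KO effect differed between the 2 sets of barcodes: the effect in C1q barcodes minus that in Lyz2/Csf1r barcodes was -3.05 ± 0.67 on the log2 scale (edgeR adjusted p = 0.0109 over 5582 genes). In C1q barcodes Lpl had 118 and 412 CPM in KO 1 and KO 2 (2 and 5 UMIs), against 349 and 606 CPM in Control 1 and Control 2, and in Lyz2/Csf1r barcodes it had 68.4 and 120 CPM in KO livers, against 40.9 and 32.7 CPM in Control. KO 2 entered this fit with 4 C1q barcodes, its CPM there lay within the Control range, and the call held in 2 of 8 alternatives. The 2 and 5 C1q UMIs of Lpl in KO 1 and KO 2 came from 1 barcode in each library.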

How the results depend on the processing

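Of the members' alternative values, 118 of 140 in the summed barcodes, 101 of 141 in Lyz2/Csf1r barcodes and 131 of 144 between the sets kept their direction and side of the threshold. Spp1 and Cd9 passed in the summed barcodes in 14 of 14 alternatives, and between the sets Trem2, Spp1, Cd9, Cd63, Lpl and Apoe passed in 15 of 15 and Gpnmb in the 9 where it was tested. Gpnmb was tested there only through its C1q barcodes, so its calls are no separate result. Counts of called genes moved more. In Lyz2/Csf1r barcodes 11 genes became 336 with 1 or more Lyz2 or Csf1r UMIs, 5 with 10 or more C1q UMIs, 4 with DESeq2, 6 with RLE size factors, 5 with at least 1000 UMIs, 6 at 10% mitochondrial UMIs, 56 with doublets kept, 132 with no filter on low counts, 69 in monocyte or macrophage-like clusters, and, in alternatives chosen after seeing the data, 112 in classical monocyte-led barcodes and 5 where the other barcodes had 0 C1q UMIs. In the summed barcodes 40 became 328 with 1 or more Lyz2 or Csf1r UMIs, 9 at 10% mitochondrial UMIs, 84 with doublets kept, 276 with no filter and 91 in monocyte or macrophage-like clusters. Between the sets 497 became 777 with 1 or more Lyz2 or Csf1r UMIs and 252 with DESeq2. Leaving out 1 library gave 50 to 126 genes in Lyz2/Csf1r barcodes, 52 to 295 in the summed barcodes and 149 to 399 between the sets (KO 2 was not in that fit). A replicate block called 165 genes in Lyz2/Csf1r barcodes and 94 in the summed barcodes, but the libraries share only a number (correlation of deviations 0.086). The cause of these shifts was not tested.

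Some small differences changed sign. In Lyz2/Csf1r barcodes, leaving out 1 library moved Cd63 between -1.33 (without KO 2) and 0.92 (without Control 2), and it was 0.20 without KO 1. Fabp5 was 0.017 in classical monocyte-led barcodes, 0.13 in monocyte or macrophage-like clusters, 0.17 without Control 2 and -0.73 without Control 1. Lgals3 was 0.0024 with doublets kept, 0.018 without KO 1 and -0.14 without KO 2. Ctsb was 0.033 with at least 1000 UMIs, 0.018 at 10% mitochondrial UMIs, 0.013 with no filter, 0.0045 where the other barcodes had 0 C1q UMIs, 0.0095 without Control 1, 0.023 without KO 2 and -0.031 without KO 1. In the summed barcodes Lgals3 was -0.078 with 1 or more Lyz2 or Csf1r UMIs, -0.055 without Control 1, -0.020 without KO 2 and 0.19 without Control 2. For Lyz2/Csf1r barcodes with 5 or more members, KO minus Control was -0.0059 percentage points as reported, 1.91 after thinning to 2000 UMIs (exact permutation p = 0.333, the smallest possible) and 0.031 with doublets kept. The Control C1q share averaged 26.1%, but 45.9% at 2000 UMIs and 13.4% at 500 UMIs. In KO 1 and KO 2 it was 1 of 4 and 1 of 1 C1q barcodes at 2000 UMIs, and the KO share of members' UMIs in C1q barcodes averaged 3.80%, but 8.06% with doublets kept.

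The KO effect in C1q barcodes, and its difference from that in Lyz2/Csf1r barcodes, was fitted only without the barcode minimum, and their alternatives on other cell filters, cuts and the replicate block were not run. For the effect, 0 genes became 5 with DESeq2 and 15 with no filter, and leaving out 1 library gave 0 to 16. Cd9, 0.076 as reported, was -0.32 with doublets kept, -0.55 with no filter and, leaving out 1 library, lowest at -0.61 (without KO 1). For the difference, 6 genes became 0 with DESeq2, 1 with doublets kept, 3 with no filter and 3 with RLE size factors, and leaving out 1 library gave 0 to 82; Apoe, -1.13 as reported, was 0.28 without KO 2. KO C1q values rest on 9 barcodes. Calls gained when a library is left out come from fits on 3 libraries, in which the lone library of a group is taken to vary like the other group.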

Other observations

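Cd63, a marker of late endosomes, was also measured in conventional dendritic cell-like barcodes, which are outside the comparisons above. It had 200 and 206 CPM in KO 1 and KO 2, against 37.1 and 60.5 CPM in Control 1 and Control 2 (19 and 53 UMIs against 27 and 46 UMIs). Both KO libraries lay above both Control libraries, the reverse of the order in C1q barcodes, where KO had 3 and 2 UMIs. The difference was not tested. The class held 55 and 51 barcodes in KO, against 465 and 253 in Control. Cd9 in natural killer or innate lymphoid-like barcodes had 160 and 242 CPM in KO livers, against 148 and 154 CPM in Control. This difference was not tested either. The Cd63 and Cd9 cases are single entries picked from all the members and cell classes read above. How many other entries, or other genes of these classes, had such an order is not given. With 2 libraries a group such an order carries little weight.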
